A study of Rattus norvegicus with 8 samples.

Results

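The G1 cyclins and cyclin-dependent kinase (CDK) inhibitors are 10 of the 37209 genes in the count table of injured and uninjured rat carotid arteries. They were found by gene symbol alone and comprise the D cyclins Ccnd1, Ccnd2 and Ccnd3, the kinases Cdk4 and Cdk6, and the inhibitors Cdkn1a, Cdkn1b, Cdkn1c, Cdkn2a and Cdkn2b. In male Sprague-Dawley rats of about 400 g, the inner lining of the left carotid artery was injured with a balloon catheter. Both carotid arteries were collected 2 weeks later, which gave 4 injured arteries and 4 uninjured right carotid arteries as controls. The labels name no genetic change or drug in either group and do not say which injured and control arteries came from the same rat. The controls are therefore arteries of animals that also underwent the operation, not of unoperated animals.

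In a resting cell, the retinoblastoma protein and its relatives hold the E2F transcription factors silent, and genes for DNA synthesis stay off. Mitogens induce the D cyclins, which bind CDK4 or CDK6 and start the phosphorylation of the retinoblastoma protein. Cyclin E and cyclin A with CDK2 then complete it and carry the cell into S phase. The INK4 inhibitors bind CDK4 and CDK6 and keep D cyclins away, whereas the CIP/KIP inhibitors p21, p27 and p57 bind cyclin-CDK complexes and block chiefly those of CDK2. Smooth muscle cells of a healthy artery seldom divide, and balloon injury is a standard means of making them divide and build a neointima.

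Of the 10 members, 9 could be tested. Of these, 4 were called higher in injured arteries and 0 lower, against 8.31% and 2.57% of all tested genes. The 4 were the D cyclin Ccnd1, its kinase partner Cdk6, the CIP/KIP inhibitor Cdkn1c and the INK4 inhibitor Cdkn2b. The largest change among tested members was that of Cdkn2b, an inhibitor, at 12.2-fold. Cdkn2a, the other INK4 member, had 35 counts in the injured arteries together and 0 in the controls, too few for the test. The Ccnd2, Ccnd3, Cdk4, Cdkn1a and Cdkn1b mRNAs did not pass the test. Both activators and inhibitors of the same step were thus among the genes that rose.

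Total counts per artery lay between 11459632 and 16658089, and 3 counts, taken as the floor of detection, corresponded to 0.168 to 0.246 CPM, the count scaled to a library of common size. This floor covers counting error only. Control artery 4 stood apart from the other controls, with correlations of log2 CPM of 0.83 to 0.852 against 0.976 to 0.978 among the other controls. It held 7727 CPM of summed sympathetic neuron markers, whereas the other controls held at most 5.41 CPM. The summed neuron markers also reached 2044 CPM in an injured artery. Injured artery 3 had correlations of log2 CPM of 0.903 to 0.941 with the other injured arteries. Values without control artery 4 are given below for some genes, and values not given may also move without it. The protocol text speaks of prefrontal cortex, whereas the remaining labels say carotid artery. The smooth muscle markers summed to 17283 to 50154 CPM in the controls and to 10398 to 16382 CPM after injury. The levels describe RNA of the whole artery wall, in which fewer cells of a type and less RNA per cell cannot be told apart. A p-value sets the difference between the groups against the spread between these 8 arteries. The tests treat the arteries as unpaired, although the study names the right artery as the self-control.

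A gene was called changed at a false discovery rate (FDR, the Benjamini-Hochberg adjusted p of edgeR's quasi-likelihood test over 14359 tested genes) under 0.05 together with a fold change above 2. By this rule 10.9% of all tested genes were called, 8.31% higher and 2.57% lower, against 4 of the 9 tested members higher and 0 lower. With all 8 arteries, none of the tested members was lower at an unadjusted p under 0.05 in edgeR either, and DESeq2 called 0 lower. Without control artery 4, Ccnd2 and Cdkn1a were lower in edgeR at an FDR of 0.00582 and 0.0163, both under a 2-fold change. With all 8 arteries, 17.2% of all genes and only the 4 called members passed an FDR under 0.05 without a limit on the fold change. The CPM of 5 of the 9 tested members did not overlap between the groups, while 23.7% of all tested genes had no overlap. The median log2 fold change was 0.44 over the 9 members and -0.06 over all tested genes. These are descriptions of a short list of genes chosen for their roles.

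**Figure D1:**
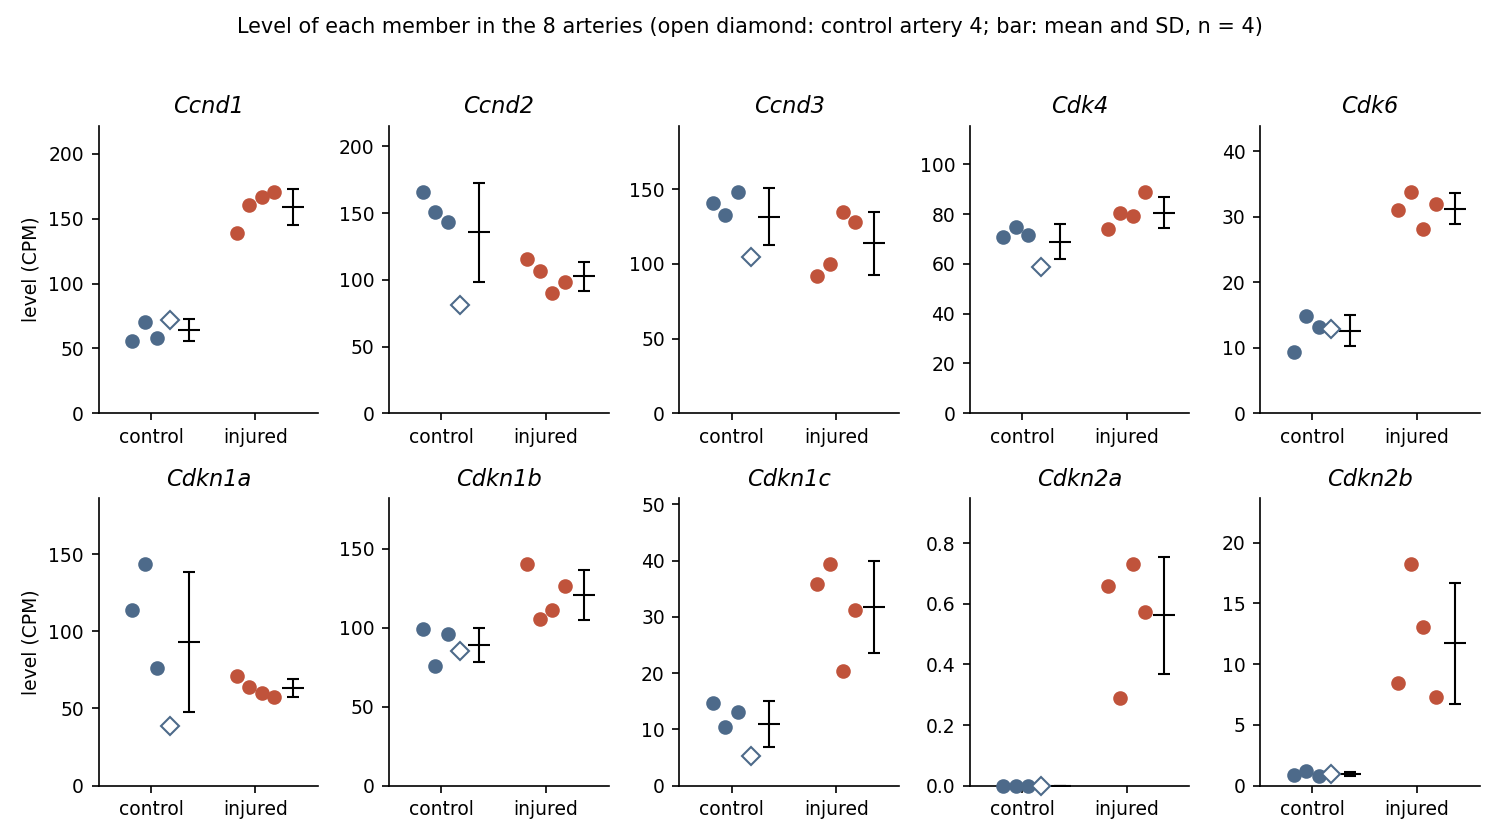
Level of each member in CPM (vertical axis, starting at 0 and scaled for each gene) in 4 control (blue) and 4 injured (red) arteries, with the mean and SD beside each group. The open diamond is control artery 4. Ccnd1, Cdk6, Cdkn1b, Cdkn1c, Cdkn2a and Cdkn2b do not overlap between the groups, and Cdkn2a is at 0 in the controls.

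Sequences just upstream of the transcription start were at hand from RefSeq (rat assembly GRCr8) for 6 of the 10 members, Ccnd3, Cdk4, Cdkn1a, Cdkn1b, Cdkn2a and Cdkn2b. The 250 bases before the annotated start are printed below for the INK4 inhibitors. Cdkn2b and Cdkn2a are shown because both had few counts in the controls and more after injury. Capitals mark letters that match a motif in either orientation.

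Cdkn2b, chr5:109134856-109135105, minus strand: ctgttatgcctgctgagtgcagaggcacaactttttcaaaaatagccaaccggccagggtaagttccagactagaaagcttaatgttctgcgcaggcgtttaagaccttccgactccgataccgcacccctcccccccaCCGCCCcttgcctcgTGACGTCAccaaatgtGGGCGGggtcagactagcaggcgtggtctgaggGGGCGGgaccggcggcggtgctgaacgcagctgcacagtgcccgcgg

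Cdkn2a, chr5:109107957-109108206, minus strand: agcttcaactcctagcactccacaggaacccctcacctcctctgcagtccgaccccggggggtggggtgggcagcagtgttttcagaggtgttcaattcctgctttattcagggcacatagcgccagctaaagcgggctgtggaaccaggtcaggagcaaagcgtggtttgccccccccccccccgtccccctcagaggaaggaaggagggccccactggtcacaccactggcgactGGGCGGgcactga

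Each window of 250 bases before and 50 after a start was searched on both strands for E2F sites (TTTCGCGC and TTTGGCGC), the AP-1 site TGAGTCA, the cyclic AMP response element TGACGTCA, the GC box GGGCGG and the E-box CACGTG. The Cdkn2b window held 1 cyclic AMP response element, 96 bases before the start, and 3 GC boxes. No motif in it overlapped another. Among all 33469 windows, 1.83% held this response element and 33.1% a GC box. The Cdkn2a window held 1 GC box. It lies inside the annotated span of Cdkn2a, a gene that makes p16INK4a and p19ARF from separate first exons, so it stands before 1 of its starts only. Of the windows not printed, that of Cdk4 held 3 E-boxes and 1 GC box. That of Ccnd3 held 3 GC boxes and lies inside the annotated span of Ccnd3, and that of Cdkn1b held 1 GC box. Neither E2F site and no AP-1 site was among the letters of these 6 windows. Over all windows the E2F sites occurred in 0.326% and 0.493% and the AP-1 site in 4.63%. A match describes letters only, and no binding was measured.

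Ccnd1 encodes cyclin D1, the D cyclin most closely tied to growth factor signaling. Its level in control arteries 1 to 4 was 55.7, 70.1, 57.8 and 72.2 CPM. In injured arteries 1 to 4 it was 139, 160.3, 167 and 171 CPM. All injured arteries lay well above all controls, and control artery 4 was the highest control. The mean rose from 64.0 ± 8.42 CPM to 159 ± 14.2 CPM (SD, n = 4). On the log2 scale this was a rise of 1.31 with a standard error (SE) of 0.13 and a 95% confidence interval of 1.02 to 1.61 (FDR 0.000637). The fold change was 2.49. The exact two-sided permutation test of log2 CPM gave p = 0.0286, the smallest that 4 arteries against 4 allow. Ccnd1 stayed called in each of the 8 fits that left out 1 artery, with log2 fold changes of 1.25 to 1.37. When the test was set against a 2-fold change rather than no change, its adjusted p was 0.0888.

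Ccnd2 and Ccnd3, which encode cyclins D2 and D3, did not pass the test. Ccnd2 stood at 166, 151, 144 and 81.4 CPM in control arteries 1 to 4, and at 115, 106, 89.7 and 98.7 CPM in injured arteries 1 to 4. Every injured artery lay below control arteries 1 to 3 and above control artery 4. The log2 fold change of Ccnd2 was -0.40 (SE 0.22, 95% confidence interval -0.90 to 0.09, FDR 0.249). Without control artery 4 it was -0.59 with an FDR of 0.00582, still under a 2-fold change. Ccnd3 stood at 141, 132, 148 and 105 CPM in the controls and at 92.1, 99.8, 135 and 128 CPM after injury. Its groups overlapped, with a log2 fold change of -0.21 (SE 0.17, 95% confidence interval -0.60 to 0.18, FDR 0.442). The intervals leave room for a moderate fall of either mRNA and reach no rise of the size seen for Ccnd1.

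The makeup of the D cyclin counts shifted accordingly. Ccnd1 made up 19.9 ± 5.68% of the reads counted on the D cyclins in the controls and 42.3 ± 1.58% in the injured arteries (SD, n = 4). The shares of Ccnd1 ran from 15.4% to 28.0% in the controls, the highest in control artery 4, and from 40.1% to 43.7% after injury. The share of Ccnd2 went from 40.3 ± 6.14% to 27.5 ± 4.62%, and that of Ccnd3 from 39.8 ± 2.13% to 30.1 ± 3.82%. The summed level of the D cyclins was 331 ± 48.8 CPM in the controls and 375 ± 23.6 CPM after injury, a difference within the spread of the controls. Read shares depend on transcript length, so they describe how the mix moved and not which D cyclin was more abundant in molecules. Shares are given as descriptions with no test.

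**Figure D2:**
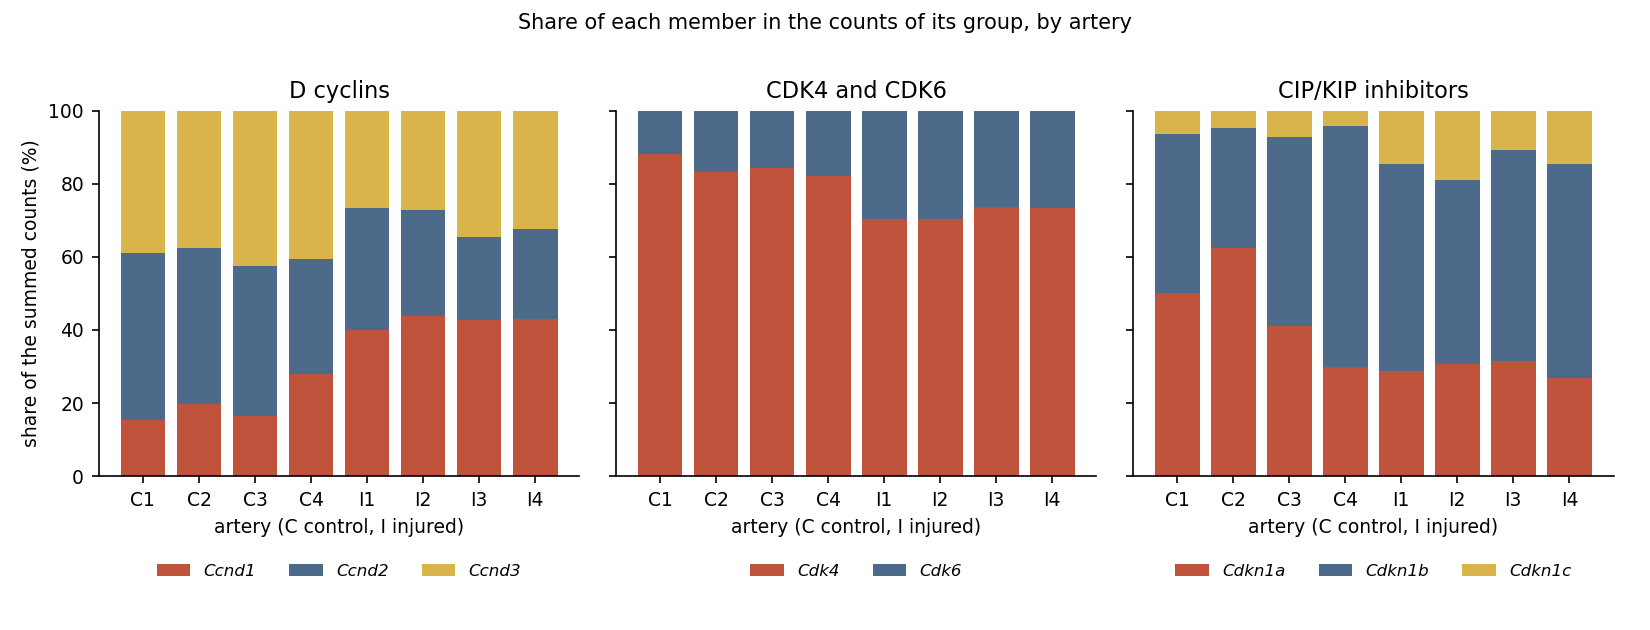
Share of each member in the summed counts of its group (vertical axis, percent) in control arteries C1 to C4 and injured arteries I1 to I4, for the D cyclins, the CDK4 and CDK6 kinases and the CIP/KIP inhibitors. The share of Ccnd1 is 15.4% to 28.0% in the controls and 40.1% to 43.7% after injury, and the shares of Cdk6 and Cdkn1c are also higher in every injured artery.

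Cdk6 and Cdk4 encode the kinases that the D cyclins activate. Cdk6 stood at 9.36, 14.9, 13.2 and 12.9 CPM in control arteries 1 to 4 and at 31.1, 33.8, 28.1 and 32.0 CPM in injured arteries 1 to 4. The groups were far apart, and the injured arteries varied little, with a coefficient of variation of 7.57%. The mean rose from 12.6 ± 2.34 CPM to 31.3 ± 2.37 CPM (SD, n = 4). On the log2 scale this was a rise of 1.31 (SE 0.16, 95% confidence interval 0.94 to 1.69, FDR 0.0016). It was called in each of the 8 fits that left out 1 artery. Against a 2-fold change the adjusted p of Cdk6 was 0.183.

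Cdk4 stood at 70.6, 74.8, 71.6 and 58.9 CPM in the controls and at 73.8, 80.4, 79.3 and 88.9 CPM after injury. The groups overlapped by a single pair of arteries, since control artery 2 exceeded injured artery 1. The log2 fold change of 0.23 (SE 0.11, 95% confidence interval -0.03 to 0.48, FDR 0.208) did not pass. Scaled by library totals only, which raised the median log2 fold change of all genes by 0.18, Cdk4 had 0.41 with an FDR of 0.0236, still under 2-fold. Of the reads on both kinases, Cdk6 took 15.5 ± 2.68% in the controls and 28.0 ± 1.90% after injury (SD, n = 4). Cdk4 overlaps Tspan31 in the GRCr8 annotation, and whether reads were counted by strand is not given in the sources used here. Cdk6 and Ccnd3 also overlap predicted genes in that annotation.

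**Figure D3:**
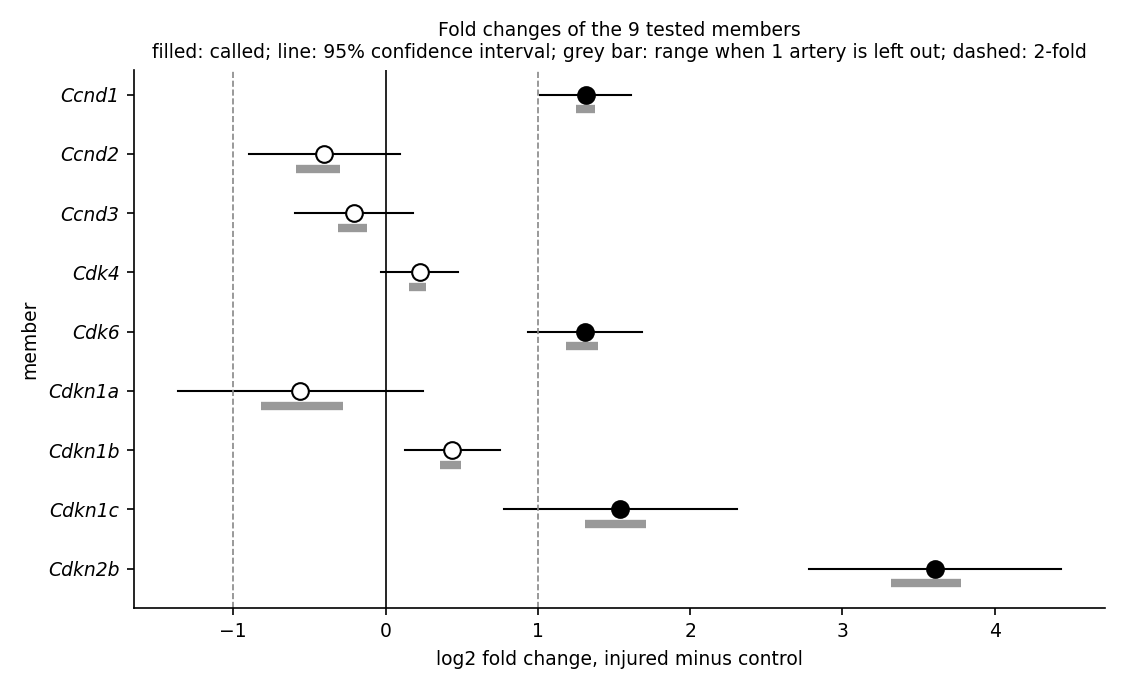
Log2 fold change of injured against control arteries (horizontal axis) for the 9 tested members, with 95% confidence intervals as black lines and, as grey bars, the range when each of the 8 arteries was left out in turn. Filled points are the called genes Ccnd1, Cdk6, Cdkn1c and Cdkn2b, and the dashed lines mark a 2-fold change in either direction.

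Among the CIP/KIP inhibitors, only Cdkn1c was called in this fit, and the values of Cdkn1a and Cdkn1b pointed in opposite directions without passing. Cdkn1c encodes p57, an inhibitor expressed from the maternal copy of an imprinted region. It stood at 14.6, 10.5, 13.1 and 5.35 CPM in control arteries 1 to 4 and at 35.8, 39.3, 20.4 and 31.3 CPM in injured arteries 1 to 4. The groups did not overlap, with control artery 4 lowest and injured artery 3 the nearest to the controls. The mean rose from 10.9 ± 4.07 CPM to 31.7 ± 8.20 CPM (SD, n = 4). The log2 fold change was 1.54 (SE 0.33, 95% confidence interval 0.77 to 2.31, FDR 0.0166), a 2.91-fold rise. The call was lost at an FDR of 0.0537 without control artery 2, 0.0556 without injured artery 2 and 0.0515 without injured artery 4. The log2 fold changes of Cdkn1c in these fits were 1.52, 1.42 and 1.54. Without control artery 4 the log2 fold change was smaller, 1.31, and still called.

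Cdkn1b encodes p27, the inhibitor best known for holding resting cells out of the cycle, where it is controlled largely through protein breakdown. It stood at 99.1, 75.9, 96.0 and 85.5 CPM in the controls and at 140.2, 105, 111 and 126 CPM after injury. The groups did not overlap, although injured artery 2 was close to control artery 1. The log2 fold change of Cdkn1b was 0.44 (SE 0.14, 95% confidence interval 0.13 to 0.75), its FDR was 0.0608, and its exact two-sided permutation p was 0.0286. Its FDR was 0.0447 with DESeq2 and 0.0203 with library totals only, under 2-fold in both. Cdkn1b was thus not called, and its mRNA showed no fall in any of the 17 alternative settings.

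Cdkn1a encodes p21, which is induced by growth arrest signals. Its level in the controls was 114, 143, 76.2 and 38.6 CPM, and in the injured arteries 70.8, 63.8, 60.3 and 57.6 CPM. The controls spread widely on both sides of the narrow injured group, with a coefficient of variation of 48.9% against 9.03%. The log2 fold change of Cdkn1a was -0.56 (SE 0.35, 95% confidence interval -1.36 to 0.24, FDR 0.323). Control artery 4 was again the lowest control. Without it, every injured artery lay below every control, and the log2 fold change was -0.82 with an FDR of 0.0163, not past the 2-fold limit. In all, 3 controls lay above the injured arteries and 1 lay below them.

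Of all reads on the CIP/KIP inhibitors, Cdkn1c took 5.55 ± 1.42% in the controls and 14.6 ± 3.35% after injury (SD, n = 4). Cdkn1a took 45.8 ± 13.8% and 29.4 ± 2.07%, and Cdkn1b 48.6 ± 13.9% and 56.0 ± 3.71%. The difference in the Cdkn1b share, injured minus control, was 7.38 percentage points, but 2.19 without control artery 2 and 13.2 without control artery 4. That of Cdkn1a was -16.5 percentage points, and -10.9 without control artery 2. The share of Cdkn1a in control artery 4 was 29.8%, within the 26.8% to 31.4% of the injured arteries. The summed level of the 3 genes was 193 ± 47.0 CPM in the controls and 216 ± 23.0 CPM after injury.

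The INK4 inhibitors Cdkn2a and Cdkn2b lie side by side on rat chromosome 5 in the GRCr8 annotation, separated by a single predicted gene. Both were low in the controls. Cdkn2b, which encodes p15, had 12, 15, 11 and 14 counts in control arteries 1 to 4 and 141, 251, 232 and 89 counts in injured arteries 1 to 4. In CPM these were 0.864, 1.23, 0.762 and 0.973 in the controls and 8.43, 18.2, 13.0 and 7.28 after injury. Even the lowest injured artery was far above the highest control, while the injured arteries differed among themselves with a coefficient of variation of 42.4%. The mean rose from 0.957 ± 0.201 CPM to 11.7 ± 4.98 CPM (SD, n = 4). On the log2 scale this was a rise of 3.61 (SE 0.36, 95% confidence interval 2.78 to 4.43, FDR 0.00066). Cdkn2b stayed called in all 17 alternative settings, at 3.32 to 3.78, and it was the only member called against a 2-fold change.

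Cdkn2a had 0 counts in each control artery and 11, 4, 13 and 7 counts in injured arteries 1 to 4. These were 0.658, 0.290, 0.730 and 0.573 CPM, each above its library's floor. Injured artery 2 stood lowest. The floor of 3 counts per library averaged 0.22 CPM over the controls. The injured mean of 0.563 ± 0.193 CPM (SD, n = 4) was 2.56 times that floor. This ratio leaves out the counting error of the injured counts. The gene was removed as too low before the main test. DESeq2 called it (adjusted p = 0.00095), and so did edgeR when low counts were not filtered out (adjusted p = 0.0185). The count table has 1 row for the gene, so p16INK4a and p19ARF transcripts cannot be told apart. Of the other INK4 genes, Cdkn2c, which encodes p18, had 7.02 ± 1.65 CPM in the controls and 11.8 ± 2.61 CPM after injury (SD, n = 4). Its log2 fold change of 0.75 (SE 0.24, FDR 0.0633) was not called, although its groups did not overlap.

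Related genes were read from 8 lists with 85 genes. Of the lists, 1 was chosen for imprinting or for lying near Cdkn1c, not for a role in G1. Of the 85 genes, 82 were matched and 78 were tested. Of these, 13, or 16.7%, were called, all higher and 4 of them from that list, against 8.31% of all tested genes called higher. A list of 9 to 13 genes with 1 called gene is near that share. When at least 10 counts were required in every sample, 9 list genes were called. When 1 artery was left out, 9 to 18 were called, the most without control artery 4. None of the list genes was called lower in edgeR or in DESeq2 with all arteries. In edgeR 11 were lower at an unadjusted p under 0.05. Of these 11, 4 had an FDR under 0.05 with less than a 2-fold change. The median log2 fold changes of the lists were -0.13 to 0.34 for the 7 lists with more than 1 tested gene. Single genes within the lists stood far above these medians, and the median of all tested genes was -0.06.

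**Figure D4:**
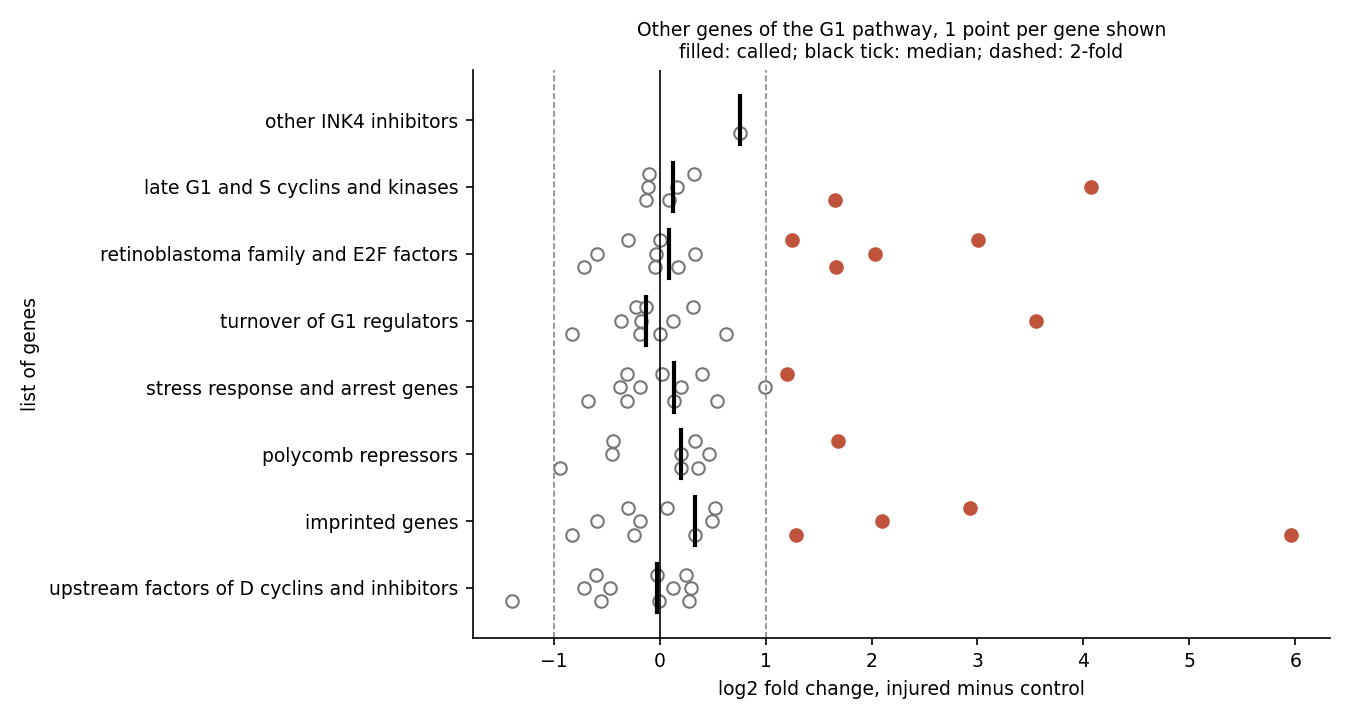
Log2 fold change of injured against control arteries (horizontal axis) for the tested genes of 8 lists (1 gene is not shown). Called genes are filled, and the list median is a black tick. The list of imprinted genes also holds neighbours of Cdkn1c and was not chosen for a role in G1. The 13 called genes are all higher, the list medians other than that of the INK4 list lie between -0.13 and 0.34, and the highest point is H19 at 5.96.

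Downstream of the D cyclins, 2 of the 8 tested late G1 and S cyclins and kinases were called. Ccna2, cyclin A2, stood at 0.144 to 1.25 CPM in the controls and at 5.56 to 11.6 CPM after injury, a log2 fold change of 4.07 (SE 0.65, FDR 0.0047). The controls of Ccna2 had 2, 6, 18 and 3 counts, and the gene was not tested when at least 10 counts were required in every sample. Control artery 3 was the highest control of Ccna2, and without it the log2 fold change was 4.97. Ccne2, cyclin E2, rose by 1.65 (SE 0.32, FDR 0.0102). Cdk2, their kinase, had 15.1 ± 3.02 CPM and 18.9 ± 2.28 CPM (SD, n = 4) and was not called (log2 fold change 0.32, FDR 0.276). Ccne1, cyclin E1, depended on 1 library. It stood at 9.17 CPM in control artery 4, at no more than 0.277 CPM in the other controls and at 1.20 to 4.16 CPM in the injured arteries. Its log2 fold change was -0.13 (FDR 0.956), and without control artery 4 it was 3.62 and called.

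Of 12 tested genes of the retinoblastoma and E2F families, 4 were called. The atypical E2F repressors E2f7 and E2f8 rose by 3.01 (SE 0.48, FDR 0.00462) and 2.04 (SE 0.38, FDR 0.00967) on the log2 scale. E2f7 had 2, 3, 6 and 4 counts in control arteries 1 to 4, near the floor of 3 counts, and 21 to 46 after injury. E2f8 had 0.546 ± 0.211 CPM in the controls and 2.27 ± 0.828 CPM after injury (SD, n = 4). Neither was tested when at least 10 counts were required in every sample. Rbl1, which encodes the retinoblastoma relative p107, rose by 1.66 (SE 0.31, FDR 0.00878), and the activator E2f2 by 1.25 (SE 0.27, FDR 0.017). The call of E2f2 was lost without control artery 2, injured artery 2 or injured artery 4. Rb1 had 61.1 ± 6.63 CPM in the controls and 40.5 ± 4.84 CPM after injury (SD, n = 4), without overlap. Its log2 fold change was -0.59 (SE 0.13, FDR 0.0163), under the 2-fold limit. The FDR of Rb1 was 0.06 without injured artery 4 and 0.0618 with upper-quartile scaling. Rbl2, which encodes p130, had -0.04 (FDR 0.894), and E2f1 had 0.17 (FDR 0.757). Without control artery 4 Rbl2 had -0.17 and E2f1 had -0.05.

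Among 11 genes that control the turnover of G1 regulators, Cks2, a small partner of CDKs, was called with a log2 fold change of 3.55 (SE 0.43, FDR 0.00148). Cks2 was not tested when at least 10 counts were required in every sample. Skp2, which marks p27 for breakdown, had 3.34 ± 0.684 CPM in the controls and 4.16 ± 0.283 CPM after injury (SD, n = 4) and was not called (log2 fold change 0.32, FDR 0.349). In the list of stress response and arrest genes, 1 of 13 tested genes was called. This was Gadd45a, a stress-induced arrest gene, at 1.20 (SE 0.29, FDR 0.026), and its call was lost when control artery 1, 2 or 3 or injured artery 1, 3 or 4 was left out. Mdm2, which encodes a ubiquitin ligase, had a log2 fold change of 0.02 (FDR 0.95).

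Of 9 genes of the polycomb complexes, which can silence the INK4 locus, Ezh2, the histone methyltransferase subunit, was called. It rose from 6.83 ± 1.65 CPM to 21.9 ± 2.77 CPM (SD, n = 4). On the log2 scale this was a rise of 1.68 (SE 0.22, FDR 0.00183), and of 1.52 without control artery 4. Of 13 tested genes that are imprinted or are neighbours of the imprinted Cdkn1c, 4 were called. H19, a maternally expressed long noncoding RNA, stood at 2.81, 7.05, 8.87 and 10.3 CPM in the controls and at 351, 487, 222 and 747 CPM after injury. Its log2 fold change of 5.96 (SE 0.57, FDR 0.000561) was the largest of the 78 tested genes of the lists. The other 3 were Dlk1 with 2.93 (FDR 0.0325), Plagl1 with 2.10 (FDR 0.00594) and Igf2, a growth factor gene beside H19, with 1.29 (FDR 0.0127). Without control artery 4, the highest control of Dlk1, its log2 fold change was 3.97. The call of Igf2 was lost without injured artery 4, and that of Dlk1 without control artery 1, 2 or 3 or injured artery 1, 2 or 4. In the list of 11 tested upstream factors of the D cyclins and inhibitors, 0 were called by edgeR or DESeq2, with 2 at an unadjusted p under 0.05. In edgeR, 1 of the 11 was lower at an FDR under 0.05 with less than a 2-fold change.

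Cell type markers moved with injury beside these results. All 6 markers of dividing cells were higher, and their summed level was 8.69 to 16.8 CPM in the controls and 76.1 to 120 CPM after injury. Of 6 macrophage markers, 5 were higher, from 96.2 to 152 CPM up to 371 to 500.4 CPM. Of 6 smooth muscle markers, 4 were lower. Of 6 skeletal muscle markers, 4 were higher, at 83.0 to 252 CPM in the controls and 283 to 997 CPM after injury. Of 4 tested T cell markers, Cd2 was called, and the list summed to 0.417 to 3.77 CPM in the controls and 4.77 to 11.9 CPM after injury. Of 6 endothelial markers, Cdh5 and Kdr were higher and Vwf was lower, and of 5 fibroblast markers, Dcn and Pi16 were lower. The Schwann cell and adipocyte lists had 0 called genes in edgeR. The sympathetic neuron markers summed to 4.28 to 2044 CPM in the injured arteries, so high sums were not confined to control artery 4. The part of these cell types in the changes of Ccnd1, Cdk6, Cdkn1c, Cdkn2a and Cdkn2b was not tested.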

How the data were processed

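The carotid arteries of rats were analysed by mRNA sequencing 2 weeks after balloon injury, with 4 injured and 4 control arteries. The authors deposited raw read counts per gene without normalization. HISAT2 2.0.4 is named in the submitters' processing notes, and the counting tool, genome build, annotation and strand setting are not given in the sources used here. Total counts were 11459632 to 16658089 per artery, and their number sets the precision of low genes.

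Counts were filtered with filterByExpr, scaled with TMM factors and tested with the quasi-likelihood test of edgeR 4.0.16 in R 4.3.3, with injured against control as the sole term and Benjamini-Hochberg adjustment over all tested genes. The study names DESeq, a fold change above 2 and an FDR under 0.05, and the same criteria were applied here. Standard errors were the log2 fold change over the square root of the F statistic, and confidence intervals are per gene, without adjustment. The tests were checked on simulated data. Exact two-sided permutation tests used log2(CPM + 1) over all 70 relabellings. Alternatives were DESeq2 1.42.0, other scalings, a minimum of 10 counts in each library, no filter on counts, each artery left out, a replicate block, no fold limit, testing against 2-fold and a pseudocount of 0.1.

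The members and gene lists were chosen with earlier results of these data known. Named were all members, Cdkn2c, Ccne1, Ccne2, Ccna2, Cdk2, Rb1, Rbl1, Rbl2, E2f1, Skp2 and Mdm2, and of each other list the called genes with the 2 largest rises and falls. E2f2, Igf2, Plagl1 and the called endothelial, fibroblast and T cell markers were named after their values were seen. Another gene that this rule named is not reported here. Of the listed genes, 145 matched by symbol, 3 by a synonym and 3 not at all (Cdkn2d, Tfdp1 and Kcnq1ot1). Promoter windows were from RefSeq, GRCr8.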

Additional observations from a re-analysis of the deposited data

Results flagged for a closer look

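Dixon's test (95%) was applied to 80 groups of 4 arteries, for the members, the named genes of the lists and the read shares. In 4 of these groups, the gap of the farthest artery to its nearest neighbour exceeded the critical value as a share of the group's range. Chance gives about 4 such groups. No member was among them. Ccne1 in the control arteries had a gap of 0.977 of the range, with 9.17 CPM in control artery 4 and 0.277 CPM in the next. Rb1 in the control arteries had 0.837, with 51.2 CPM in control artery 4 and 63.1 CPM in the next. E2f2 in the injured arteries had 0.859, with 8.48 CPM in injured artery 3 and 9.98 CPM in the next. Igf2 in the injured arteries had 0.874, with 73.1 CPM in injured artery 4 and 40.5 CPM in the next.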

How the results depend on the processing

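None of the 9 tested members changed direction under any of the 17 alternative settings. Across all genes, 1562 were called in the fit reported, 1007 when at least 10 counts were required in every sample (fewer genes tested), 2468 by the FDR alone, 661 in the test against a fold change of 2, and 1142 to 2398 when 1 artery was left out, the most without control artery 4. The members called fell from 4 to 1, Cdkn2b, in the test against a fold change of 2, and the genes called in the pathway lists from 13 to 6. DESeq2 gave 2150 calls among 16652 genes with an adjusted p, 1549 of them shared, and 5 members, Cdkn2a being the addition. Library totals only raised the share of higher calls from 76.4% to 85.1%.

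Fitted with the replicate number as a block, edgeR called 1187 genes, of which 1137 were shared, and 3 members, Ccnd1, Cdk6 and Cdkn2b. In this replicate block fit Cdkn1c stood at 1.59 (log2), with adjusted p = 0.0503. E2f2, Gadd45a and Dlk1 were not called in it either. After the group means were removed, arteries of the same number correlated at 0.301, 0.45, -0.52 and -0.416 for numbers 1 to 4. Of the control arteries, only control artery 2 correlated best with the injured artery of its own number. Such correlations of 4 arteries per group are too few to decide whether a number marks a rat. The labels do not say it either, so the arteries were treated as sharing only a number. Among the lists, the stress response and arrest genes called ranged from 0 to 3, and the cause was not tested. Read shares scaled by transcript length were not run, because no transcript lengths were at hand. Depth limits Cdkn2a, whose counts stayed at 13 or fewer per artery.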
